A study of Homo sapiens with 60 samples.

Results

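The 29 genes described here encode the enzymes that build cholesterol from acetyl-CoA, the proteins that control SREBP2, the transcription factor of this pathway, and proteins of cholesterol uptake, lysosomal export and efflux. They are a list of genes of this pathway, drawn up with earlier results of these data known, and all 29 were found by symbol among the 60675 genes of the count table. The list holds 19 synthesis enzymes, 4 genes of SREBP2 control and sterol carriage, 4 of uptake and lysosomal export, and 2 of efflux. Of the 29, 28 passed the filter on low counts, and ABCG1, an exporter of cholesterol to lipoproteins, did not, with 0 to 3 counts in any library.

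HepG2 cells, an established human hepatocellular carcinoma line that keeps many functions of hepatocytes, had been treated for 24 h with water extracts of traditional Korean herbal medicines at 20, 100 or 500 µg/mL, and mRNA libraries were sequenced from total RNA. The 60 libraries comprise 3 vehicle libraries, labelled 0.1% DMSO, 3 libraries at each dose for each of 6 extracts, and 3 libraries of a seventh, Soshiho-tang, with 1 library at each dose. The 6 extracts with replicates are Menthae Herba and Saposhnikoviae Radix, which are single herbs, and the formulas Soyo-san, Okbyeongpung-san, Saengmaek-san and Guibi-tang. Soyo-san traditionally contains Menthae Herba, and Okbyeongpung-san contains Saposhnikoviae Radix. The series' design text names 2% DMSO for the vehicle where the sample labels name 0.1%, and neither says that replicates were separate cultures. The p-values here therefore reflect no more than how far these libraries scatter. All cells were of this 1 line, and the compounds in the extracts are not named.

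Library totals ran from 20446542 to 32386486 counts (median 25862356). The 8 hepatocyte markers examined, among them ALB, AFP and HNF4A, were all present in every library, with a summed level of 19125 to 22691 CPM (read counts scaled to a common library total). Fibroblast markers summed to 0.468 to 1.50 CPM and endothelial markers to 3.85 to 6.04 CPM. Leukocyte markers summed to 921 to 2625 CPM, nearly all of it LYZ, while the other markers of that list, PTPRC, CD3E and CD79A, were at most 0.0431, 0.0413 and 0.638 CPM. The libraries fell into 2 classes by MALAT1, a nuclear noncoding RNA, the lower one of 31 replicated libraries (174 to 282 CPM) and the higher one of 26 (387 to 551 CPM). The lower class held every library of vehicle and of both single herbs, and the higher class held all Soyo-san and Okbyeongpung-san libraries, while Saengmaek-san and Guibi-tang had both. Saengmaek-san had 1 library of the higher class at each dose. Guibi-tang had 2 at 20, 2 at 100 and 1 at 500, so its 500 against 20 comparison is not balanced for class. The sample codes put Menthae Herba with Saposhnikoviae Radix, Soyo-san with Okbyeongpung-san, and Saengmaek-san with Guibi-tang, and set the vehicle apart, so in a comparison with vehicle the code and the extract cannot be told apart, whereas 500 against 20 µg/mL of the same extract stays within a code. The mitochondrial share of counts was 13.0 to 16.4% in vehicle and 9.33 to 14.3% in the replicated extract libraries. Alternative fits given below used the MALAT1 class as a covariate or a replicate block within the code. Beyond those fits, the part of these library differences in the results below was not tested.

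Cholesterol synthesis starts with acetyl-CoA units, which are joined and reduced to mevalonate, and goes on through phosphorylated isoprenoids to squalene, which is closed to lanosterol, the first sterol. Lanosterol is then demethylated, reduced and isomerised to cholesterol in the endoplasmic reticulum. When sterols in that membrane are low, SCAP carries SREBP2, the product of SREBF2, to the Golgi, where it is cleaved, and the released fragment enters the nucleus and raises transcription of most of these enzymes. When sterols are high, the INSIG proteins hold SCAP in the endoplasmic reticulum, and oxysterols activate LXR, a nuclear receptor that raises the exporter ABCA1 and the ubiquitin ligase MYLIP. Hepatocytes both make cholesterol and take it up from lipoproteins, which release it in lysosomes through NPC2 and NPC1.

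The stretches just upstream of 5 members are shown because the SREBP2 pathway acts through such sequence: SREBF2 itself, and 4 enzymes of different reactions, picked as examples, that are described below. They come from RefSeq promoters on GRCh38.p14, run 5′ to 3′ on the strand of the gene, and have in capitals the letters TCACNCNAC, a form of the sterol regulatory element, and CCAAT, the box bound by NF-Y, searched on both strands (ATTGG is CCAAT on the other strand). They are chr22:41832915-41833064 (plus strand), chr1:155308676-155308748 (plus), chr5:43313508-43313602 (minus), chr16:88663167-88663281 (minus) and chrX:152830823-152830966 (plus).
SREBF2: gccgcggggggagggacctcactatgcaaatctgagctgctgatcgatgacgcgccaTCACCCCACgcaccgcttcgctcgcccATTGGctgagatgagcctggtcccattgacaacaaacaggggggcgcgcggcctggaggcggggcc
FDPS: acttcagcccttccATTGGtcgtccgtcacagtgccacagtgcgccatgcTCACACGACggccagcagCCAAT
HMGCS1: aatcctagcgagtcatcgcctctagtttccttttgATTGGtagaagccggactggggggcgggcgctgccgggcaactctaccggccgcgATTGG
MVD: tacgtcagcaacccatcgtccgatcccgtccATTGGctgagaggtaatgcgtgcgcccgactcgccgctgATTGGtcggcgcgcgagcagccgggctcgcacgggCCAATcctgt
NSDHL: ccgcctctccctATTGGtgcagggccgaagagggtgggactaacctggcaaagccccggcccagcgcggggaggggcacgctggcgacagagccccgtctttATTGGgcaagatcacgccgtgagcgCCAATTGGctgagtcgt
Of the 29 members, 25 had a promoter in the table, and ACAT2, FDFT1, SQLE and ABCG1 are named only. In windows from 250 bases before to 50 after the start site, CCAAT was present in 19 of the 25 members and in 13 of the 16 enzymes with a sequence, against 39.7% of the 27305 genes with promoters of the same length (34.6% of the 35116 promoters, since a gene can have several). The 3 enzymes without it were PMVK, CYP51A1 and LBR. The letters TCACNCCAC were found in SREBF2 alone among the members (1.39% of genes, 1.13% of promoters), and the looser TCACNCNAC, which includes the former, in SREBF2, FDPS and HSD17B7 (3.13% of genes, 2.55% of promoters). The E-box CACGTG was found in 5 of the 25 (8.77% of genes, 7.26% of promoters). These matches are letters in a window and not measured binding.

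In vehicle libraries, levels set per kilobase of exon ranged over the members from 0.00649 to 93.0 CPM per kb. The highest were FDFT1, squalene synthase, at 93.0 ± 3.32 (SD, n = 3), SQLE, squalene epoxidase, at 86.9 ± 2.39, and HMGCS1, the synthase that makes HMG-CoA, at 82.0 ± 6.36 CPM per kb. The ranges of SQLE and HMGCS1 overlapped. The SREBP2 gene SREBF2 was at 37.1 ± 2.10 and NPC1 at 11.7 ± 0.514 CPM per kb. MYLIP was at 1.65 ± 0.106 CPM per kb, and INSIG1, the feedback protein that is itself an SREBP2 target, at 0.0769 ± 0.0177 CPM per kb, with 0 to 11 counts in every library of the series, so no fold is given for it. Such a count is low for a liver cell line, and whether it reflects the transcript or the annotation and read assignment used in counting was not tested, so it is not read here as an expression level. Exon length was the union of annotated exons in GENCODE v29.

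The summed level of the 19 synthesis enzymes had, for all 6 extracts, a mean at 500 µg/mL that was below the mean at 20. In such bulk libraries, fewer cells with a transcript and less of it per cell cannot be told apart. The sum was 3595, 3623 and 3549 CPM in the 3 vehicle libraries. With Menthae Herba it was 3672, 3656 and 3420 CPM at 20 µg/mL, 3197, 3137 and 3107 at 100 and 2629, 2654 and 2630 at 500, so that the mean at 500 was 73.6% of that at 20. The 3 doses did not overlap, and every library at 100 and 500 lay below all vehicle libraries. With Soyo-san the sum was 3670, 3586 and 3695 CPM at 20 µg/mL, 3550, 3498 and 3711 at 100 and 2888, 2879 and 2862 at 500, or 78.8% of the mean at 20. Here the libraries at 20 and 100 overlapped with vehicle, and all 3 at 500 lay below it. The same was seen with Saengmaek-san, at 3747, 3683 and 3613, then 3683, 3605 and 3592, then 3072, 3119 and 2991 CPM (83.2% at 500). Guibi-tang, at 3719, 3675 and 3632, then 3885, 3966 and 3692, then 3461, 3351 and 3302 CPM, had its highest sums at 100 and 91.7% of the 20 µg/mL mean at 500. Saposhnikoviae Radix at 500, with 3392, 3141 and 3236 CPM, was at 88.9% of its mean at 20, and Okbyeongpung-san at 500, with 3520, 3564 and 3544 CPM, at 95.4%. These sums are a description and carry no test.

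**Figure D1:**
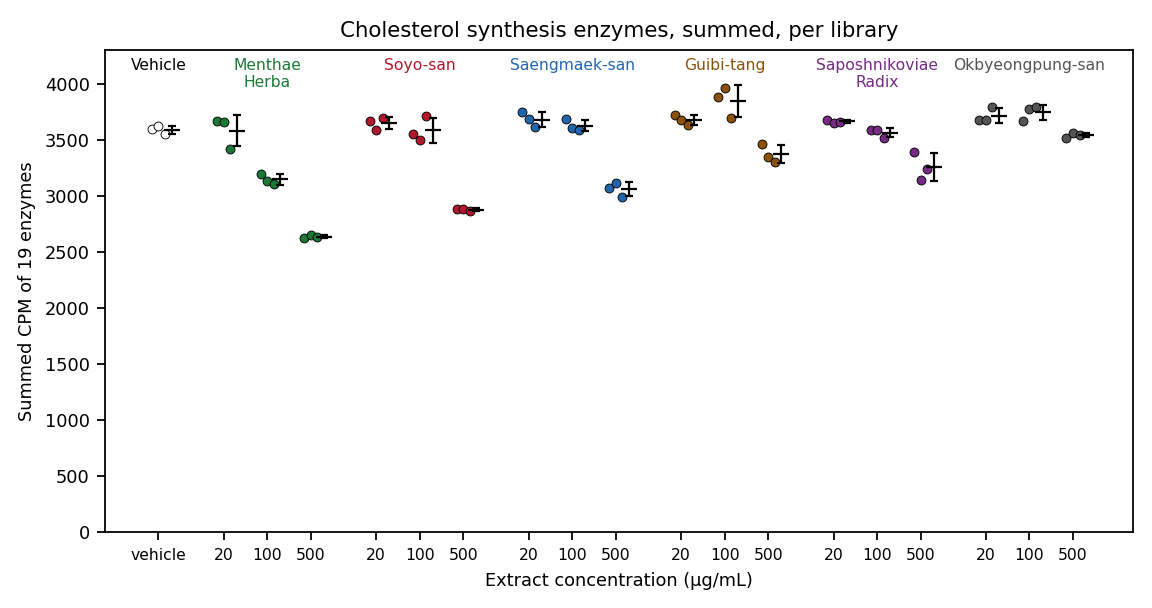
Summed CPM of the 19 cholesterol synthesis enzymes (vertical axis, from 0) in each of the 57 replicated libraries by extract and concentration (horizontal axis), with bars for the mean and SD of 3 libraries. The Menthae Herba libraries step down at each dose to 2629 to 2654 CPM at 500 µg/mL, Soyo-san and Saengmaek-san are lower at 500 µg/mL, and Okbyeongpung-san stays between 3520 and 3795 CPM.

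Gene by gene, 500 µg/mL was compared with 20 of the same extract by edgeR's quasi-likelihood test, and a gene was called where its Benjamini-Hochberg adjusted p over all genes tested was under 0.05. Most members were called lower with Menthae Herba and Soyo-san, and 14 of 28 with Saengmaek-san. With Menthae Herba, 19 of the 28 tested members were lower and 1 higher, where 32.1% of all 16644 genes tested were called in either direction (15.8% lower, 16.3% higher). With Soyo-san 17 were lower and 1 higher, against 7.58% of all genes (3.34% lower, 4.24% higher). With Saengmaek-san 14 were lower and 1 higher, against 1.96% (1.05% lower, 0.913% higher). With Guibi-tang 4 were lower and 1 higher, against 8.12% (3.20% lower, 4.93% higher), and with Saposhnikoviae Radix 2 were lower, FDPS and FDFT1, against 0.397% (0.186% lower, 0.210% higher). With Okbyeongpung-san no member was called by edgeR, where 0.0240% of all genes were (0.00601% lower, 0.0180% higher), 3 members had an unadjusted p under 0.05, and DESeq2 called 0. For Menthae Herba the enzymes' count stands beside a broad change of the transcriptome, while for Saengmaek-san few other genes were called. The Saengmaek-san count depended on the pooled estimate of spread: fitted on its own 2 groups alone, 2 members were called, and without replicate 1 at 500 or replicate 1 at 20 there were 9. The Saposhnikoviae Radix count was 0 without replicate 2 at 500, 1 without replicate 3 at 500 or replicate 1 or 2 at 20, and 4 without replicate 1 at 500.

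Over the 19 enzymes, the median log2 fold change of 500 against 20 µg/mL was -0.46 with Menthae Herba, -0.28 with Soyo-san, -0.25 with Saengmaek-san, -0.17 with Saposhnikoviae Radix, -0.12 with Guibi-tang and -0.04 with Okbyeongpung-san, while the median of all genes tested lay between -0.01 and 0.00 in each. Enzymes with all 3 libraries at 500 below all 3 at 20 numbered 18 with Menthae Herba (21.6% of all genes tested), 18 with Soyo-san (13.3%), 17 with Saengmaek-san (7.95%), 15 with Saposhnikoviae Radix (6.22%), 9 with Guibi-tang (10.5%) and 6 with Okbyeongpung-san (5.53%). Called lower with Menthae Herba, Soyo-san and Saengmaek-san alike were 13 members, ACAT2, HMGCS1, MVK, MVD, FDPS, FDFT1, SQLE, LSS, TM7SF2, NSDHL, EBP, SC5D and DHCR7, out of 88 genes of the 16644. Of these, ACAT2, HMGCS1, SQLE and TM7SF2 were also called lower with Guibi-tang, out of 52 genes. The 3 comparisons share no library, but they share the fit. Of the 13, HMGCS1 and FDFT1 alone kept their Saengmaek-san call when only its 2 groups were fitted. Among the 6 fits that left out 1 Saengmaek-san library, the EBP call was lost in 4. Those of ACAT2, NSDHL and SC5D were each lost in 3, and that of DHCR7 in 2. With Soyo-san the EBP call was lost in 4 such fits, NSDHL in 2 and SC5D in 1.

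**Figure D2:**
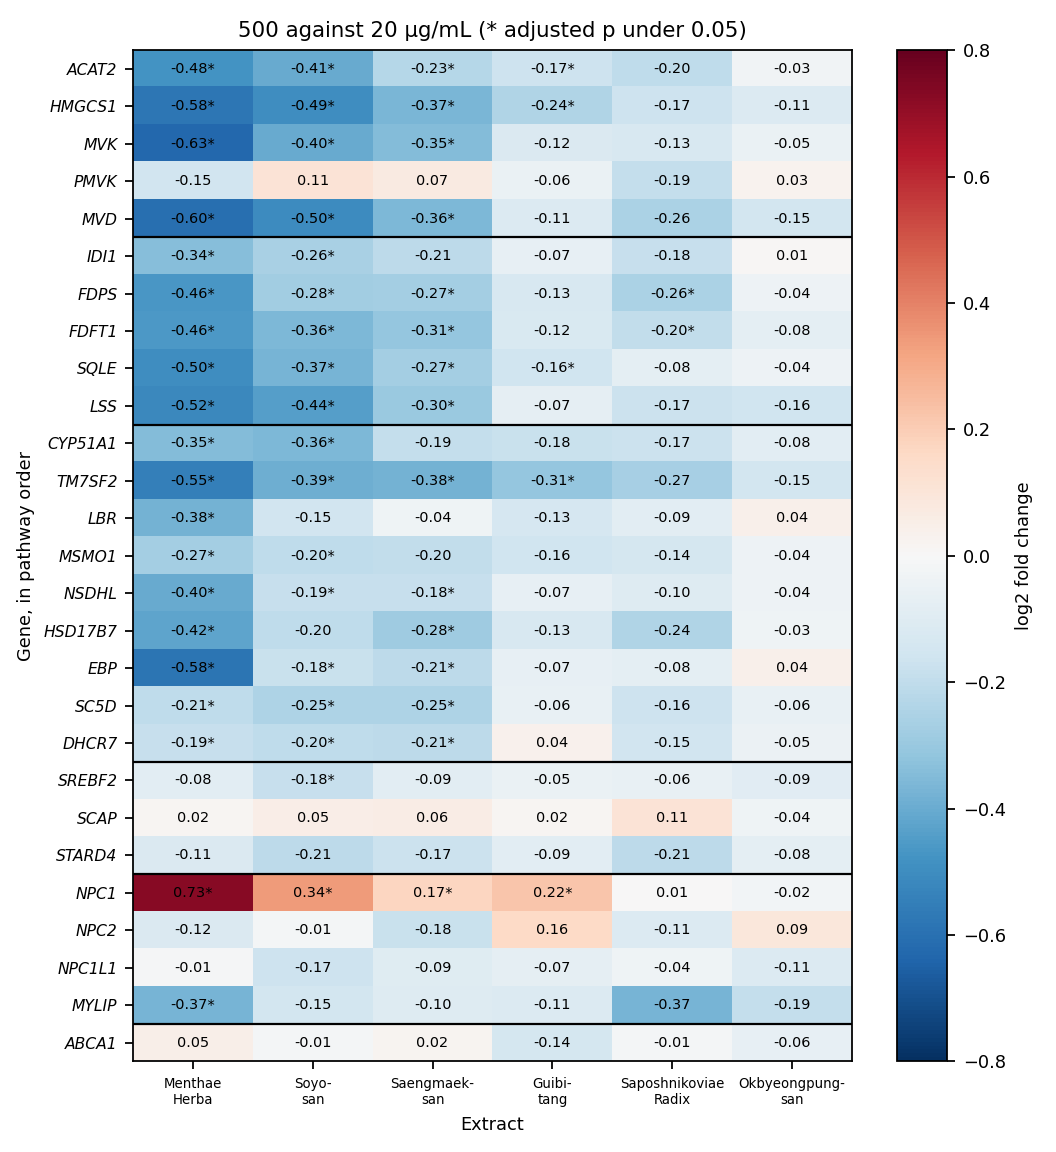
log2 fold change of 500 against 20 µg/mL for 27 members in pathway order (rows) and 6 extracts (columns), with an asterisk where the adjusted p was under 0.05; INSIG1 and ABCG1, at or near 0 counts, are left out. Enzyme rows are blue in nearly all of the Menthae Herba, Soyo-san and Saengmaek-san columns, and NPC1 is the row that is red in 4 columns.

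Of the list, 5 enzymes act between acetyl-CoA and the activated isoprenoid unit, and all of them but PMVK fell with Menthae Herba, Soyo-san and Saengmaek-san. HMGCS1 (chr5:43289395-43313512, minus strand, GRCh38 by GENCODE v29) was at 417, 382 and 357 CPM in vehicle. With Menthae Herba it was at 352, 349.9 and 303 CPM at 20 µg/mL, 294, 284 and 285 at 100 and 226, 217 and 231 at 500, which are 3 separate levels (500 against 20: log2 fold change -0.58 ± 0.05, adjusted p = 5.07e-13; here and below ± is the SE of a log2 fold change from 3 libraries a group). Libraries at 20 µg/mL were already below all vehicle libraries (-0.20 ± 0.05, adjusted p = 0.0132). With Soyo-san HMGCS1 was at 400.4, 396 and 384 CPM at 20 and 292, 283 and 264 at 500 (-0.49 ± 0.05, adjusted p = 5.33e-10). With Saengmaek-san it went from 373, 369.5 and 396 to 299, 294 and 290.2 CPM (-0.37 ± 0.05, adjusted p = 3.94e-06), and with Guibi-tang from 367, 409 and 385 to 326, 327 and 329.8 CPM (-0.24 ± 0.05, adjusted p = 0.00112). In all 4 the groups were apart.

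MVK, mevalonate kinase, had the largest log2 fold change of the called enzymes with Menthae Herba. Its level was 93.4, 91.8 and 94.2 CPM at 20, 78.1, 78.7 and 77.6 at 100 and 61.2, 59.7 and 59.7 at 500 µg/mL, a fall of 35.4% (-0.63 ± 0.07, adjusted p = 1.8e-11), with no overlap between doses. With Soyo-san it was 90.4, 84.5 and 92.0 at 20 and 67.3, 69.1 and 65.5 CPM at 500 (-0.40 ± 0.07). MVD, the decarboxylase that ends this stretch, went from 259, 255 and 260.1 to 171, 168 and 169.8 CPM with Menthae Herba (-0.60 ± 0.07) and from 239.6, 222 and 248 to 168, 164 and 169.8 CPM with Soyo-san (-0.50 ± 0.07), where it was the enzyme of largest fall. With Saengmaek-san, MVD was 263, 254 and 219 CPM at 20 and 202, 200.4 and 172 at 500 (-0.36 ± 0.07). Replicate 3 was the lowest at both doses there, and it is a library of the higher MALAT1 class, unlike replicates 1 and 2. With that class as a covariate, 17 members were called for Saengmaek-san in place of 15. ACAT2, the thiolase of the first step, fell with Menthae Herba (-0.48 ± 0.06), Soyo-san (-0.41 ± 0.06), Saengmaek-san (-0.23 ± 0.06) and Guibi-tang (-0.17 ± 0.05), the last with an adjusted p of 0.0487 and lost in 5 of the 6 fits that left out 1 library. That Guibi-tang call was also lost with no filter, with the MALAT1 class as a covariate and with only the groups compared. Of the exon bases of ACAT2, 52.3% overlap genes on the other strand (TCP1 and SOD2), and whether counting used strand is not given in the sources used here. PMVK, phosphomevalonate kinase, was not called with any extract at 500 against 20. It lay at 10.3, 9.35 and 8.20 CPM at 20 and 8.76, 8.68 and 7.63 at 500 with Menthae Herba (-0.15 ± 0.11), which overlap, and at 7.10 to 10.6 CPM over all replicated libraries. Its level per kb in vehicle, 6.03 ± 0.468 CPM per kb, was the lowest of the 19 enzymes, with a range that overlapped that of HSD17B7.

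From isoprenoids to lanosterol, all 5 enzymes fell with Menthae Herba and with Soyo-san, and 4 with Saengmaek-san. SQLE, the epoxidase that is a control point of this stretch, was at 386, 371 and 366 CPM in vehicle. Menthae Herba libraries held 340.5, 353 and 351 CPM at 20, 296, 293 and 316 at 100 and 245, 242 and 251 at 500 µg/mL (500 against 20: -0.50 ± 0.04, adjusted p = 1.8e-15). All 9 of these lay below the lowest vehicle library, and the doses did not overlap. Soyo-san went from 355, 373 and 364 to 285, 273 and 284 CPM (-0.37 ± 0.04, adjusted p = 1.97e-10), Saengmaek-san from 373, 365 and 363 to 317, 305 and 292 (-0.27 ± 0.04), and Guibi-tang from 362, 369 and 359 to 328, 327 and 323 (-0.16 ± 0.04). With Okbyeongpung-san SQLE lay at 358, 353 and 375 CPM at 20 and 350.4, 352 and 352 at 500 (-0.04 ± 0.04), without a call.

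FDFT1, which joins 2 farnesyl units to squalene, was the member with the highest level per kb in vehicle and fell in 4 extracts. It was 481, 464 and 443 CPM at 20 and 327, 343 and 339.7 at 500 µg/mL with Menthae Herba (-0.46 ± 0.04, adjusted p = 2.57e-13). With Saposhnikoviae Radix it was 467, 471 and 467 CPM at 20 and 433, 393 and 398 at 500 (-0.20 ± 0.04, adjusted p = 0.00709). The latter groups do not overlap, and the call was lost without replicate 2 or 3 at 500 or replicate 2 at 20. FDPS, farnesyl diphosphate synthase, was the other member called with Saposhnikoviae Radix, at 224, 218 and 214 CPM at 20 and 198, 167 and 183 at 500 (-0.26 ± 0.05, adjusted p = 0.00566). The FDPS call was lost without replicate 2 at 500 or replicate 1 at 20. Both Saposhnikoviae Radix calls were lost with only the groups compared, and that of FDFT1 also with no filter. LSS, which closes the ring to lanosterol, fell with Menthae Herba (-0.52 ± 0.06), Soyo-san (-0.44 ± 0.06) and Saengmaek-san (-0.30 ± 0.06), and IDI1, the isomerase, with Menthae Herba (-0.34 ± 0.06) and Soyo-san (-0.26 ± 0.06). With Saengmaek-san IDI1 had -0.21 ± 0.06 (adjusted p = 0.0582).

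From lanosterol to cholesterol, all 9 enzymes fell with Menthae Herba, 7 with Soyo-san, 6 with Saengmaek-san and 1, TM7SF2, with Guibi-tang. EBP, the sterol isomerase, changed most in this stretch with Menthae Herba, at 102, 102 and 101 CPM at 20, 87.5, 84.9 and 77.5 at 100 and 67.3, 70.1 and 66.2 at 500 µg/mL (-0.58 ± 0.05, adjusted p = 3.65e-13). With Soyo-san it was 91.0, 86.0 and 89.7 at 20 and 77.6, 76.9 and 80.8 CPM at 500 (-0.18 ± 0.05, adjusted p = 0.0236). Both pairs of groups are apart, but the fall was deeper with Menthae Herba, and the difference between the 2 dose changes was 0.40 ± 0.08, adjusted p = 0.000186 (Soyo-san minus Menthae Herba). The EBP call with Soyo-san was lost in 4 of the 6 fits that left out 1 library.

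TM7SF2 and LBR both encode the sterol C14 reductase, LBR being also a receptor of the nuclear lamina. TM7SF2 (chr11:65111845-65116384, plus strand) was at 96.4, 94.0 and 104 CPM at 20 and 68.8, 69.0 and 63.6 at 500 with Menthae Herba (-0.55 ± 0.08), at 86.1, 83.5 and 90.6 and 63.4, 68.4 and 66.5 with Soyo-san (-0.39 ± 0.08), and at 101, 80.6 and 87.1 and 73.7, 75.8 and 67.7 with Guibi-tang (-0.31 ± 0.08). It also fell with Saengmaek-san (-0.38 ± 0.08). LBR was at 124, 129 and 108 CPM at 20 and 93.8, 92.3 and 90.5 at 500 with Menthae Herba (-0.38 ± 0.05, adjusted p = 1.15e-07), which was its only call at 500 against 20. With Soyo-san it was at 129, 125 and 125 and 113, 115 and 114 CPM (-0.15 ± 0.05, adjusted p = 0.0833) and with Saengmaek-san at 119, 129 and 131 and 126, 123 and 121 (-0.04 ± 0.05), where the groups overlap. Whether the change of TM7SF2 differed from that of LBR was not tested.

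With Menthae Herba, HSD17B7, the 3-ketosteroid reductase, had -0.42 ± 0.07, NSDHL, which takes part in C4 demethylation, -0.40 ± 0.05, CYP51A1, the lanosterol demethylase, -0.35 ± 0.06, and MSMO1, the methylsterol monooxygenase, -0.27 ± 0.07. SC5D and DHCR7, which act near the end, had -0.21 ± 0.06 and -0.19 ± 0.05 with Menthae Herba. They had further calls with Soyo-san (-0.25 ± 0.06 and -0.20 ± 0.05) and Saengmaek-san (-0.25 ± 0.06 and -0.21 ± 0.05). The SC5D call was lost in 3 of the 6 fits that left out 1 library with Menthae Herba and in 3 of 6 with Saengmaek-san, where DHCR7 was lost in 2. The MSMO1 call with Soyo-san (-0.20 ± 0.07) was lost in each of the 6 fits that left out 1 library. For CYP51A1, 83.2% of exon bases overlap other annotated genes, in part on the same strand, so its value can hold reads of the neighbours. Its counts were fractional in 100% of libraries, which was not particular to it. FDPS also had 100%, HMGCS1 98.3%, NPC1 96.7%, and HSD17B7, without exon overlap, 98.3%, while other members such as SQLE, MVD and EBP had 0%.

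Among the 4 genes of SREBP2 control and sterol carriage, 1 call was made at 500 against 20 µg/mL. SREBF2 (chr22:41833079-41907308, plus strand) was at 262, 292 and 287 CPM in vehicle. With Menthae Herba, the extract with the largest fall of the enzymes, it was at 287, 286 and 308 CPM at 20 and 279.8, 279.6 and 273 at 500 µg/mL (-0.08 ± 0.05, adjusted p = 0.247). With Soyo-san it was at 281, 269 and 274 and 246, 239 and 243 CPM (-0.18 ± 0.05, adjusted p = 0.0203), the single call of this gene at 500 against 20, and it was lost in 5 of the 6 fits that left out 1 library. SCAP, the escort protein, lay at 155, 154 and 171 CPM at 20 and 165, 161 and 159 at 500 with Menthae Herba (0.02 ± 0.07), and its log2 fold changes in the 6 extracts ranged from -0.04 to 0.11 without a call. STARD4, a carrier of cholesterol between membranes, had -0.21 to -0.08 without a call. INSIG1 had 0.214, 0.285 and 0.343 CPM in vehicle, 0.104, 0.209 and 0.117 with Menthae Herba at 500 and 0, 0.166 and 0.162 with Soyo-san at 500, where 3 counts equal 0.0926 to 0.147 CPM, so a change was not detectable with these counts.

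NPC1, which carries cholesterol out of the lysosome, was the 1 member called higher at 500 against 20 µg/mL. Its level was 115, 117 and 125 CPM in vehicle. With Menthae Herba it was 137, 132 and 125 CPM at 20, 137, 142 and 145 at 100 and 213, 221 and 218 at 500 µg/mL, a rise of 65.4% from 20 to 500 (0.73 ± 0.05, adjusted p = 4.86e-19). The libraries at 500 stand far above all others, and those at 20 and 100 overlap. With Soyo-san it went from 127, 124 and 124 to 161, 156 and 157 CPM (0.34 ± 0.05, adjusted p = 1.78e-07), with Guibi-tang from 132, 128 and 121 to 147, 146 and 151 (0.22 ± 0.05, adjusted p = 0.000603), and with Saengmaek-san from 124, 128 and 126 to 146, 140.2 and 139 (0.17 ± 0.05, adjusted p = 0.0271). None of these groups overlap. NPC1 was 1 of 78 genes called higher in all 4 extracts, and its Saengmaek-san call was lost in 3 of the 6 fits that left out 1 library. With Saposhnikoviae Radix it was 129, 132 and 136 at 20 and 130.2, 134 and 134 CPM at 500 (0.01 ± 0.05), and with Okbyeongpung-san 119, 125 and 132 and 119, 128 and 123 (-0.02 ± 0.05).

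The partner of NPC1 in the lysosome, NPC2, was not called at 500 against 20 in any extract (log2 fold changes -0.18 to 0.16). NPC1L1, the sterol uptake protein that ezetimibe blocks, had -0.17 to -0.01 and no call. MYLIP, the ligase that marks lipoprotein receptors for degradation, was at 4.60, 4.29 and 5.29 CPM at 20 and 3.57, 3.84 and 3.60 at 500 with Menthae Herba (-0.37 ± 0.12, adjusted p = 0.0147). With Saposhnikoviae Radix its change was of the same size without a call (-0.37 ± 0.12, adjusted p = 0.255), and the gene has only 79 to 147 counts a library. The Menthae Herba call was lost without replicate 1 or 3 at 500 or replicate 3 at 20. ABCA1, the exporter that is a target of LXR, was at 159, 150.0 and 146 CPM in vehicle, 162, 168 and 146 with Menthae Herba at 20 and 166, 162 and 166 at 500 (0.05 ± 0.06), and its 6 dose changes ran from -0.14 to 0.05 without a call.

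**Figure D3:**
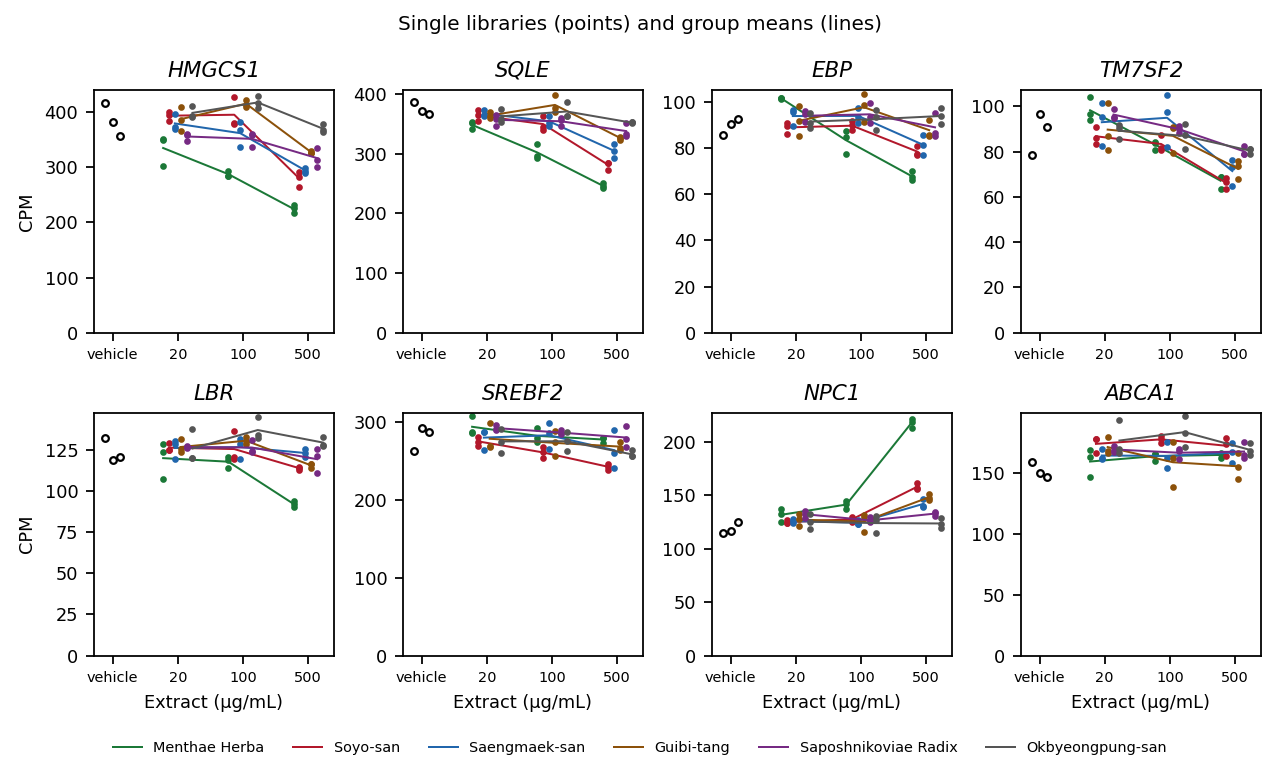
CPM (vertical axes, from 0) of 8 members in vehicle (open circles) and at 20, 100 and 500 µg/mL of 6 extracts (points are single libraries, lines join group means, 3 libraries each). HMGCS1, SQLE, EBP and TM7SF2 are lower at 500 than at 20 µg/mL in all libraries of Menthae Herba, Soyo-san and Saengmaek-san, LBR in those of Menthae Herba among others, EBP is not lower with Okbyeongpung-san, SREBF2 and ABCA1 stay within about the same band, and NPC1 climbs to 213 to 221 CPM with Menthae Herba.

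Set against the vehicle, which all such comparisons share, members were called lower mainly at 500 µg/mL. At 500 µg/mL, members called lower and higher were 19 and 1 with Menthae Herba (39.8% of all genes called, 20.0% lower, 19.8% higher), 17 and 2 with Soyo-san (21.5%, 11.4% lower, 10.1% higher), 10 and 1 with Saengmaek-san (12.6%, 6.98% lower, 5.67% higher), 5 and 1 with Saposhnikoviae Radix (5.80%, 2.82% lower, 2.99% higher), 4 and 2 with Guibi-tang (13.4%, 6.72% lower, 6.69% higher), and 1 and 2 with Okbyeongpung-san (9.11%, 4.90% lower, 4.22% higher). HMGCS1 had -0.78 ± 0.05 with Menthae Herba, -0.46 ± 0.05 with Soyo-san, -0.39 ± 0.05 with Saengmaek-san, -0.28 ± 0.05 with Saposhnikoviae Radix and -0.24 ± 0.05 with Guibi-tang, each called lower, and -0.06 ± 0.05 with Okbyeongpung-san, which was not called. The Okbyeongpung-san calls were MYLIP (-0.46 ± 0.12), ACAT2 (0.17 ± 0.06) and MSMO1 (0.20 ± 0.07), the last 2 higher, and at most 1 was left when any 1 library was taken out. The Saposhnikoviae Radix count was 3 without replicate 3 at 500. With Soyo-san, ABCA1 was above vehicle (0.18 ± 0.06) and SREBF2 below it (-0.21 ± 0.05), and with Guibi-tang NPC2 was above it (0.22 ± 0.08). ABCA1 and NPC2 each lost their call in 4 of the 6 fits that left out 1 library. With the MALAT1 class as a covariate the calls of NPC2 with Guibi-tang, of ACAT2 and MSMO1 with Okbyeongpung-san, and of ABCA1, SREBF2, NPC1L1, EBP and DHCR7 with Soyo-san were lost. That covariate is estimated only from the Saengmaek-san and Guibi-tang groups, which hold both classes. Soyo-san and Okbyeongpung-san are wholly of the higher class and vehicle is wholly of the lower. For both of these extracts the fit carries the estimate over and cannot separate class from extract. NPC1 was above vehicle in 5 extracts, by 0.87 ± 0.05 with Menthae Herba, 0.41 ± 0.05 with Soyo-san, 0.32 ± 0.05 with Guibi-tang, 0.26 ± 0.05 with Saengmaek-san and 0.16 ± 0.05 with Saposhnikoviae Radix, the last lost in 4 of the 6 fits that left out 1 library, with no filter and with only the groups compared.

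At 100 µg/mL, Menthae Herba had 6 members lower and 2 higher against vehicle, where 14.0% of all genes were called (7.04% lower, 7.00% higher). The 6 were HMGCS1 (-0.42 ± 0.05), SC5D (-0.37 ± 0.06), MYLIP (-0.34 ± 0.12), SQLE (-0.31 ± 0.04), FDFT1 (-0.27 ± 0.04) and CYP51A1 (-0.23 ± 0.06), and the 2 higher were PMVK (0.36 ± 0.12) and NPC1 (0.25 ± 0.05). PMVK, CYP51A1 and MYLIP lost their calls without vehicle replicate 1. Over the 6 fits that left out 1 library, MYLIP was lost in 5, PMVK in 4 and CYP51A1 in 1. The MYLIP call was also lost with no filter, with only the groups compared and with DESeq2. Saposhnikoviae Radix had 1 lower at this dose, SC5D (-0.26 ± 0.06), against 5.47% of all genes (2.66% lower, 2.81% higher), and the call was lost without vehicle replicate 1 or its own replicate 3. Guibi-tang had 4 higher, ACAT2 (0.30 ± 0.06), HSD17B7 (0.27 ± 0.07), IDI1 (0.21 ± 0.06) and FDPS (0.19 ± 0.05), against 7.96% (4.92% lower, 3.04% higher), and 1 was left without its replicate 2. Soyo-san had 2 higher, ABCA1 (0.23 ± 0.06) and ACAT2 (0.20 ± 0.06), against 8.31% (4.91% lower, 3.39% higher), with 1 left without vehicle replicate 2 or its own replicate 1 and neither without vehicle replicate 3 or its own replicate 3, nor with the MALAT1 class as a covariate. Okbyeongpung-san had 3 higher, ABCA1 (0.27 ± 0.06), MSMO1 (0.25 ± 0.07) and ACAT2 (0.24 ± 0.06), against 12.9% (7.04% lower, 5.90% higher), and there were 5 without vehicle replicate 1. With the MALAT1 class as a covariate, IDI1 with Guibi-tang and MSMO1 with Okbyeongpung-san were lost at this dose. With Saengmaek-san at 100, edgeR called 0 members (6 at an unadjusted p under 0.05, 0 by DESeq2), against 6.05% (3.33% lower, 2.72% higher).

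At 20 µg/mL few members differed from vehicle. Menthae Herba had HMGCS1 lower, and EBP (0.18 ± 0.05) and NPC1 (0.15 ± 0.05) higher, where 6.83% of all genes were called (3.49% lower, 3.33% higher), no call was left without vehicle replicate 1, and 1 without its own replicate 1 or 2. Saposhnikoviae Radix had FDPS (0.18 ± 0.05) and NPC1 (0.16 ± 0.05) higher (7.19%, 3.65% lower, 3.54% higher), with none left without vehicle replicate 1 or its own replicate 1 or 2, and only FDPS without vehicle replicate 2 or its own replicate 3. ACAT2 was higher with Guibi-tang (0.22 ± 0.06, 4.38% of all genes called, 2.63% lower, 1.75% higher), Soyo-san (0.22 ± 0.06, 3.88%, 2.22% lower, 1.66% higher) and Okbyeongpung-san (0.20 ± 0.06, 6.99%, 3.76% lower, 3.23% higher), and the last also had ABCA1 (0.22 ± 0.06) and MSMO1 (0.24 ± 0.07) higher. All of these calls of Guibi-tang, Soyo-san and Okbyeongpung-san were lost with the MALAT1 class as a covariate. For Soyo-san and Okbyeongpung-san, class and extract differ from vehicle together, so that fit cannot say which of them the calls reflect. All calls of these 3 extracts were also lost without vehicle replicate 3, those of Guibi-tang and Okbyeongpung-san also without their own replicate 3, and that of Soyo-san without its own replicate 1 or 2. Saengmaek-san at 20 had 0 calls by edgeR (3 at an unadjusted p under 0.05, 0 by DESeq2), against 3.37% (1.92% lower, 1.45% higher).

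**Figure D4:**
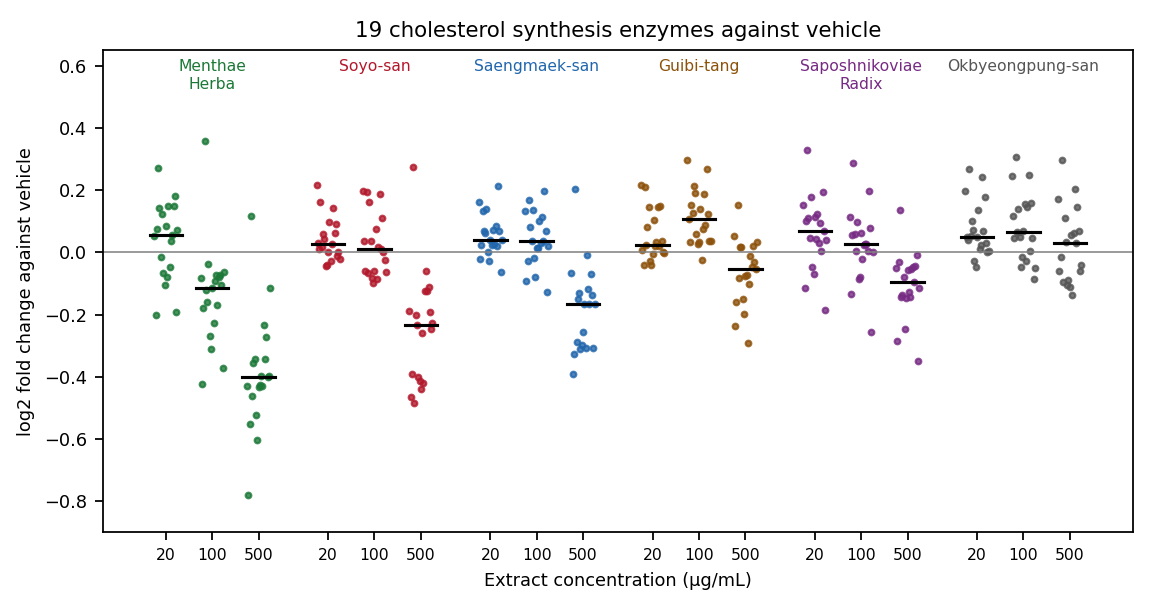
log2 fold change against vehicle (vertical axis) of each of the 19 synthesis enzymes (points) at 20, 100 and 500 µg/mL of 6 extracts (horizontal axis), with a bar at the median. The medians lie near 0 at 20 µg/mL and fall to -0.40 with Menthae Herba, -0.23 with Soyo-san and -0.17 with Saengmaek-san at 500; the Menthae Herba point at 0.12 and the Soyo-san point at 0.27 are PMVK.

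The differences between extracts were tested as differences of the 2 changes from 20 to 500 µg/mL. Menthae Herba against Saposhnikoviae Radix, which share a sample code and a MALAT1 class, differed for 13 members, 12 with a lower change for Menthae Herba and NPC1 with a higher one, where 20.0% of all genes differed (9.99% lower, 10.0% higher). EBP (-0.50 ± 0.07, adjusted p = 6.68e-07), MVK (-0.50 ± 0.09, adjusted p = 3.16e-05) and SQLE (-0.42 ± 0.05, adjusted p = 3.62e-08) differed most among the enzymes, and NPC1 by 0.72 ± 0.06, adjusted p = 7.83e-13. Of the 13, TM7SF2 was lost in 11 of the 12 fits that left out 1 library and FDPS in 9. Soyo-san against Okbyeongpung-san, also of 1 code and 1 class, differed for 8 members, where 2.36% of all genes did (0.853% lower, 1.50% higher). The 7 with a lower change for Soyo-san were HMGCS1 (-0.39 ± 0.07), ACAT2 (-0.38 ± 0.08), MVD (-0.35 ± 0.10), MVK (-0.35 ± 0.09), SQLE (-0.33 ± 0.05), FDFT1 (-0.28 ± 0.06) and LSS (-0.28 ± 0.08), and NPC1 was higher (0.36 ± 0.06). This count was 5 in 6 of the 12 fits that left out 1 library, namely replicate 1 or 3 of Soyo-san at 500 or at 20, or replicate 1 or 2 of Okbyeongpung-san at 500. Over the 12 fits MVD was lost in 11, LSS in 9 and MVK in 7.

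Soyo-san and its component Menthae Herba, which differ in code and class, differed for 3 members, where 6.57% of all genes did (3.56% lower, 3.02% higher). The fall was smaller with Soyo-san for EBP (0.40 ± 0.08) and NSDHL (0.22 ± 0.07), and so was the rise of NPC1 (-0.38 ± 0.06). The NSDHL difference was lost in 8 of the 12 fits that left out 1 library and with no filter. HMGCS1 (0.08 ± 0.08, adjusted p = 0.61) and SQLE (0.12 ± 0.05, adjusted p = 0.191) were not called different. Saengmaek-san against Guibi-tang differed for 0 members by edgeR (8 at an unadjusted p under 0.05, 2 by DESeq2), where 1.15% of all genes did (0.829% lower, 0.324% higher). There the largest gap among the enzymes was MVD (-0.25 ± 0.10, adjusted p = 0.326), so the count of 14 lower members with Saengmaek-san and 4 with Guibi-tang is not shown to be a difference between them. Okbyeongpung-san against Saposhnikoviae Radix differed for 0 members by edgeR (5 at an unadjusted p under 0.05, 0 by DESeq2), where 0.0180% of all genes did (0.0120% lower, 0.00601% higher). All 19 enzymes had a positive value in that difference, between 0.01 and 0.22, without a call. They were measured in the same libraries, so their common sign is not 19 separate results, and it was not tested.

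Other genes of sterol and isoprenoid metabolism, a list of 33 of which 30 were tested, moved in both directions. For 500 against 20 µg/mL, 6 were lower and 8 higher with Menthae Herba, where 15.8% of all genes were lower and 16.3% higher. Lower and higher were 3 and 3 with Soyo-san (3.34% and 4.24% of all genes) and 2 and 1 with Saengmaek-san (1.05% and 0.913%). With Guibi-tang they were 2 and 3 (3.20% and 4.93%), and with Saposhnikoviae Radix 1 and 0 (0.186% and 0.210%). With Okbyeongpung-san edgeR called none (0.00601% and 0.0180%). The largest fall was of TMEM97, a sterol-regulated protein that binds NPC1, from a mean of 219 to 119 CPM with Menthae Herba (-0.88 ± 0.04). TMEM97 was called lower in 5 extracts, also with Soyo-san (-0.43 ± 0.04), Saengmaek-san (-0.29 ± 0.04), Saposhnikoviae Radix (-0.18 ± 0.04) and Guibi-tang (-0.15 ± 0.04). ERG28, a scaffold of the C4 demethylation enzymes, fell with Menthae Herba (-0.47 ± 0.07), Saengmaek-san (-0.38 ± 0.07) and Soyo-san (-0.31 ± 0.07). INSIG2, which like INSIG1 holds SCAP in the endoplasmic reticulum, rose from 37.3 to 75.6 CPM with Menthae Herba (1.02 ± 0.07, adjusted p = 4.47e-17), from 36.7 to 52.0 with Soyo-san (0.50 ± 0.07) and from 38.0 to 47.4 with Saengmaek-san (0.32 ± 0.07). In each of these 3 all libraries at 500 were above all at 20. GRAMD1A, which carries cholesterol from the plasma membrane (0.70 ± 0.06), and NCEH1, a cholesteryl ester hydrolase (0.70 ± 0.06), rose with Menthae Herba, the former also with Guibi-tang (0.22 ± 0.06) and the latter with Soyo-san (0.41 ± 0.06). SOAT2, which esterifies cholesterol, rose with Menthae Herba (0.31 ± 0.06), Soyo-san (0.27 ± 0.07) and Guibi-tang (0.22 ± 0.07).

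Soshiho-tang had 1 library at each dose, so its values have no replicate check and no test. The enzyme sum was 3774 CPM at 20, 3593 at 100 and 3502 at 500 µg/mL. HMGCS1 was at 411, 387 and 352 CPM, SQLE at 359, 354 and 329 CPM, and NPC1 at 127, 132 and 149 CPM in that order of dose. Of the 19 enzymes, 16 had a log2 ratio of 500 over 20 below 0, and the ratios ran from -0.22 to 0.09 with a median of -0.09, where the median over the 16169 genes with more than 3 counts in both libraries was -0.0043.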

How the data were processed

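RNA was measured in 60 HepG2 libraries. Per the submitters' processing notes, the tools were FastQC 0.11.9, Trim Galore 0.6.5, STAR 2.7.3a and RSEM 1.3.3 with build GRCh38; annotation release, settings and strand option were not given in the sources used here. The deposited values are RSEM expected counts per gene, which share reads that map to several genes; 71.9% of the values above 0 had no decimals. Symbols were taken from a gene name table for 56558 of the 60675 IDs, and positions and exon lengths from GENCODE v29 (GRCh38).

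Expected counts were rounded, scaled by TMM and tested with edgeR 4.0.16 (limma 3.58.1, R 4.3.3; quasi-likelihood, robust) on 57 libraries in 19 groups, with filterByExpr at a minimum count of 10, leaving 16644 genes. A call is a Benjamini-Hochberg adjusted p under 0.05 over all genes of a comparison. Values after "log2 fold change" or in brackets as "a ± b" are log2 fold changes with their SE; CPM uses TMM-scaled totals. The comparisons were 500 against 20 µg/mL within an extract, each dose against vehicle, and differences between dose changes. Replicates differed by more than counting noise (chi-square per degree of freedom 2.21 to 18.0). A count of 3 is 0.0926 to 0.147 CPM, covering counting error only.

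The members and lists were chosen with earlier results of these data known. All members could be named: in each comparison the 5 called with the largest change in each direction, and always HMGCS1, SQLE, INSIG1, SREBF2 and ABCA1, with others of each step as examples. Genes outside the members were named only if called. Alternatives were RLE size factors, no filter, DESeq2 1.42.0, only the groups compared, replicate blocks, MALAT1 class as a covariate, and each replicate left out. The test was checked on simulated data.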

Additional observations from a re-analysis of the deposited data

Results flagged for a closer look

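The members below are those whose change from 20 to 500 µg/mL differed between a pair of extracts in edgeR's quasi-likelihood test of the difference itself (adjusted p under 0.05 over all genes). All values are differences of log2 fold changes, with their SE.

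Menthae Herba minus Saposhnikoviae Radix gave 13 such members. In the first steps these were ACAT2 (-0.28 ± 0.08), HMGCS1 (-0.41 ± 0.07), MVK (-0.50 ± 0.09) and MVD (-0.35 ± 0.10). Between isoprenoids and lanosterol they were FDPS (-0.21 ± 0.07), FDFT1 (-0.26 ± 0.06), SQLE (-0.42 ± 0.05) and LSS (-0.35 ± 0.08). After lanosterol they were TM7SF2 (-0.28 ± 0.11, adjusted p = 0.0493), LBR (-0.29 ± 0.08), NSDHL (-0.30 ± 0.07) and EBP (-0.50 ± 0.07). The lysosomal exporter NPC1 was the single one with a positive value (0.72 ± 0.06). Of the 12 fits that left out 1 library, TM7SF2 was lost in 11 and FDPS in 9, and FDPS also with no filter and with only the groups compared.

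Soyo-san minus Okbyeongpung-san gave 8, which were ACAT2 (-0.38 ± 0.08), HMGCS1 (-0.39 ± 0.07), MVK (-0.35 ± 0.09), MVD (-0.35 ± 0.10), FDFT1 (-0.28 ± 0.06), SQLE (-0.33 ± 0.05), LSS (-0.28 ± 0.08) and NPC1 (0.36 ± 0.06). MVD and LSS were near the threshold, with adjusted p = 0.0454 and 0.0477, and were lost in 11 and 9 of 12 such fits, and MVK in 7. Soyo-san minus Menthae Herba gave NSDHL (0.22 ± 0.07, adjusted p = 0.0398), EBP (0.40 ± 0.08, adjusted p = 0.000186) and NPC1 (-0.38 ± 0.06, adjusted p = 2.89e-05). The NSDHL call was lost in 8 of 12 such fits and with no filter. All 3 calls of this last comparison were kept with the MALAT1 class as a covariate and with a replicate block within the sample code. Whether the dose change itself depends on code or class was not tested, since each of these extracts has a single code and class.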

How the results depend on the processing

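Values here are numbers of members called, of 28 tested, and the cause of each change was not tested. With RLE size factors every count was within 1.5 times the main one. No named member changed sign where it was called in the main fit or in the fit set against it, under any alternative or with any library left out. Changes of sign without a call in either fit were not counted. Over the named members and comparisons, 1437 values kept their side of the threshold under the alternatives, 51 lost and 11 gained a call, and with 1 library left out these were 1412, 134 and 2.

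For 500 against 20 µg/mL, Saposhnikoviae Radix went from 2 to 4 with DESeq2, 6 with the MALAT1 class, 1 with only the groups compared and 7 with a replicate block within the sample code, and Saengmaek-san from 15 to 2 with only the groups compared. The 1 member called for Saposhnikoviae Radix with only the groups compared was neither FDPS nor FDFT1. Against vehicle at 500, Okbyeongpung-san went from 3 to 6 with DESeq2 or only the groups compared, and to 5 with the block within the code. At 100, the MALAT1 class gave 4 for Saengmaek-san (from 0), 7 for Guibi-tang (from 4) and 8 for Okbyeongpung-san (from 3); only the groups compared gave 1 for Guibi-tang and 1 for Soyo-san (from 2); the block within the code gave 7 for Guibi-tang, 5 for Soyo-san and 5 for Okbyeongpung-san. At 20, DESeq2 gave 5 for Menthae Herba (from 3), 4 for Saposhnikoviae Radix (from 2) and 2 for Soyo-san (from 1). The MALAT1 class gave 4 for Saposhnikoviae Radix, 1 for Saengmaek-san (from 0), 2 for Soyo-san and 6 for Okbyeongpung-san (from 3). Such counts need not hold the members named in the report: with the MALAT1 class, 0 of the calls at 20 with Guibi-tang, Soyo-san and Okbyeongpung-san and 0 of the 2 at 100 with Soyo-san were kept, and 14 of 19 at 500 with Soyo-san. Against vehicle, the class fit cannot separate class from extract for Soyo-san and Okbyeongpung-san. Only the groups compared gave 0 for Menthae Herba, 6 for Saposhnikoviae Radix, 0 for Guibi-tang (from 1), 2 for Soyo-san and 1 for Okbyeongpung-san. The block within the code gave 6 for Menthae Herba, 5 for Saposhnikoviae Radix and 3 for Soyo-san, and no filter gave 3 for Soyo-san. Saengmaek-san minus Guibi-tang went from 0 to 2 with DESeq2, 1 with the MALAT1 class, 1 with no filter and 4 with the block within the code. Soyo-san minus Menthae Herba went from 3 to 5 with the MALAT1 class, 6 with only the groups compared and 5 with the block within the code.

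Replicates were not treated as pairs. In 0 of 24 comparisons did every same-numbered pair correlate above 0.1 (r from -0.14 to 0.20). This rule asks for every pair and does not test a shared effect within single replicate numbers. For 500 against 20, r of replicates 1, 2 and 3 was 0.03, 0.06 and 0.20 with Saengmaek-san and 0.13, -0.07 and 0.16 with Guibi-tang. In both extracts replicate 1 was of the lower MALAT1 class and replicate 3 of the higher at each dose. The replicate block over all libraries moved Soyo-san at 20 against vehicle from 1 to 2 and left every other count within 1.5 times.

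With 1 library left out, the counts for 500 against 20 were 18 to 20 with Menthae Herba, 0 to 4 with Saposhnikoviae Radix, 9 to 14 with Saengmaek-san, 4 to 5 with Guibi-tang, 14 to 16 with Soyo-san and 0 to 0 with Okbyeongpung-san. In the same order, against vehicle at 500 they were 19 to 20, 3 to 6, 8 to 12, 5 to 6, 17 to 19 and 0 to 1, at 100 they were 6 to 7, 0 to 2, 0 to 1, 1 to 6, 0 to 3 and 3 to 5, and at 20 they were 0 to 4, 0 to 3, 0 to 0, 0 to 1, 0 to 1 and 0 to 3. For the differences between extracts they were 10 to 14 for Menthae Herba minus Saposhnikoviae Radix, 0 to 1 for Saengmaek-san minus Guibi-tang, 5 to 8 for Soyo-san minus Okbyeongpung-san, 2 to 3 for Soyo-san minus Menthae Herba, and 0 to 0 for Okbyeongpung-san minus Saposhnikoviae Radix. INSIG1 and ABCG1 had too few counts for a fold, and for INSIG1 the part of annotation and read assignment in that was not tested.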
